A study of Mus musculus with 91 samples.

Results

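Genes of apicobasal polarity, 10 of the 53379 gene identifiers counted, were followed in single cells of the mouse caudal lateral epiblast (CLE), the tissue that flanks the node and the anterior primitive streak and holds axial progenitors. They were chosen by name, with earlier results of these data known. Crb2 is of the Crumbs complex, and Pard3, Pard6a, Pard6b, Prkci and Prkcz are of the PAR complex. Llgl1, Llgl2, Scrib and Dlg1 are of the Scribble module. The CLE was dissected from wild type embryos of outbred MF1 mice at the early head fold stage, around embryonic day (E) 8.0, most of the paraxial mesoderm beneath it was taken off, and single cells from the pooled pieces were placed by FACS into separate wells of a 96-well plate. Full-length cDNA of 91 cells was sequenced with Smart-seq2, which carries no molecular identifiers, so that many reads can come from 1 molecule. No treatment or mutation was involved, and no embryo of origin is named for any cell. The 91 cells are therefore 1 pooled sample and no test between cells was made.

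Epithelial cells keep an apical and a basolateral surface apart through mutual exclusion of protein complexes. The Crumbs complex marks the apical membrane, the PAR complex of Par3, Par6 and atypical protein kinase C (aPKC) sits at the apical side and at the junctions, and the Scribble module of Scribble, Lgl and Dlg holds the basolateral side. aPKC phosphorylates Lgl and so keeps it from the apical cortex, while Lgl binds and restrains the PAR complex. The epiblast is a polarised epithelium, and cells that enter the primitive streak lose this organisation as they become mesoderm.

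Levels are in counts per 1000000 counts of the cell (CPM). A cell was called epiblast-like when its CPM of Nkx1-2, a homeobox gene of the caudal epiblast, was higher than that of Aldh1a2, which encodes a retinoic acid-producing enzyme of young mesoderm, and mesoderm-like otherwise. The rule gave 43 epiblast-like and 48 mesoderm-like cells and used none of the polarity genes. Nkx1-2 and Aldh1a2 fixed the classes and are left out of the marker counts. Of 7 other epiblast markers, 6 differed at least 2-fold toward the epiblast-like cells, Pou5f1 being the exception, and 6 had reads in at least 50% of these cells. All 7 other mesoderm markers had reads in at least 50% of the mesoderm-like cells and none did in the epiblast-like cells, while 4 of the epiblast markers also reached 50% of the mesoderm-like cells. Cdh1, the adhesion protein of epithelial junctions, had a mean of 276 ± 175 CPM (SD over cells) in the epiblast-like class against 50.2 ± 83.8 CPM in the mesoderm-like class. Total counts ranged from 709866 to 4439571 per cell, with medians of 2450073 in the epiblast-like and 2589802 in the mesoderm-like class, and median genes with a read were 8172 and 7835.5. The median summed CPM of each marker list for other tissues (node, endoderm, blood and vessel, lateral mesoderm, neural, surface ectoderm) was 0 in both classes. Single mesoderm-like cells reached summed values of 122 CPM for node, 140 CPM for neural and 165 CPM for surface ectoderm markers. In epiblast-like cells the highest summed values of these lists were 7.34, 113 and 72.6 CPM. A single mesoderm-like cell, well D4, had 1711 CPM of Cer1 and the highest total count. Cer1 was the only gene of the endoderm list with a read in it. Leaving it out changed no 2-fold call among the 10 genes.

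A group of 4 cells lay within 4-fold of the cut between the classes. The nearest, well B10, was epiblast-like with 688 CPM of Nkx1-2 and 570 CPM of Aldh1a2, and had reads of 7 polarity genes, with Pard6b at 11.5 CPM. The other cells, D1, E12 and G3, were mesoderm-like, had reads of 5, 5 and 6 polarity genes and none of Pard6b. Crb2 and Pard6a were at 0 in all 4 cells.

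Of the 10 polarity genes, 5 (Crb2, Pard6a, Pard6b, Llgl2 and Dlg1) had a mean at least 2-fold higher in the epiblast-like class, on the scale of mean CPM with 1 CPM added to both means, and none had one in the mesoderm-like class. Of all 18054 genes with reads in 3 or more cells, 8.18% met this rule toward the epiblast-like and 9.55% toward the mesoderm-like class, and of the 8653 with a mean of 10 CPM or more, 5.59% and 7.81%. The other 5, Pard3, Prkci, Prkcz, Llgl1 and Scrib, differed less than 2-fold. Crb2 met the rule in plate rows A to D and not in rows E to H. With 10 CPM added in place of 1 only Pard6b and Llgl2 met it. The share of all genes was not computed for that setting. The median log2 ratio, epiblast-like over mesoderm-like, was 0.89 over the 10 genes and 0.0071 over all genes measured. The PAR complex and the Scribble module each held genes that were higher in epiblast-like cells beside genes that differed less than 2-fold. Of the latter, Scrib leaned furthest toward the mesoderm-like class, with a log2 ratio of -0.86. All 10 genes had cells at 0 CPM in both classes, and the ranges of the classes overlapped for every gene, as the plot of the cells shows.

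**Figure D1:**
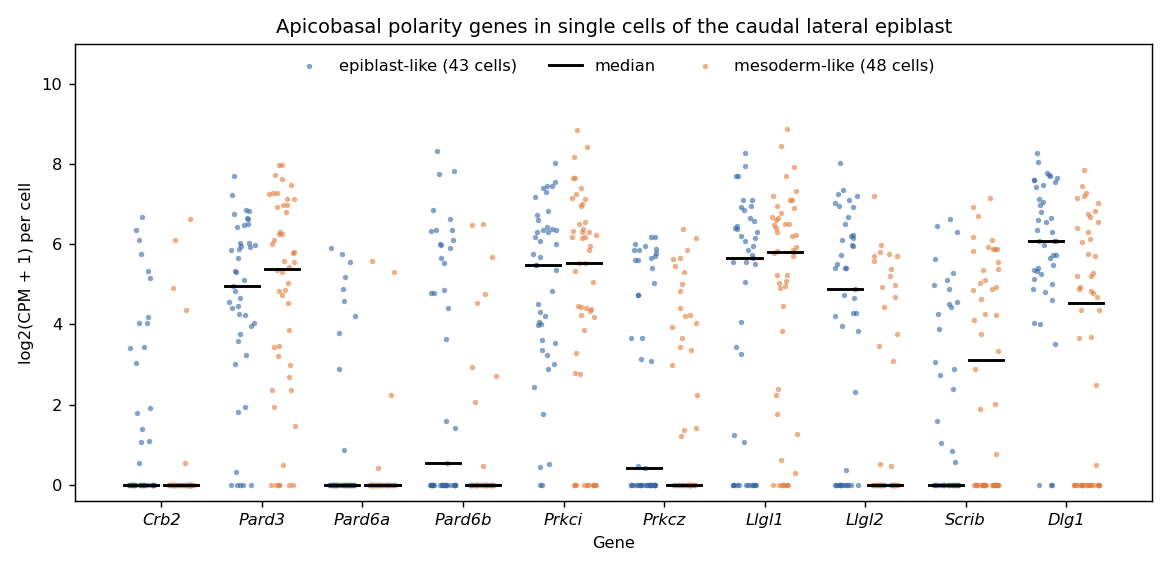
Level of the 10 polarity genes in each cell as log2(CPM + 1), with 43 epiblast-like cells in blue, 48 mesoderm-like cells in orange and the class median as a black line. Dlg1, Llgl2 and Pard6b lie higher in the epiblast-like cells, Pard3, Prkci and Llgl1 are spread alike in both classes, and every gene has cells at 0.

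Crb2 encodes the Crumbs protein of the mouse epiblast, a transmembrane organiser of the apical membrane. In epiblast-like cells the lowest, median and highest values were 0, 0 and 101 CPM, and in mesoderm-like cells 0, 0 and 98.3 CPM. Most cells of both classes thus had no read, and the highest cells of the classes were alike. Among the epiblast-like cells 18 of 43 had a read of Crb2 (41.9%, 95% interval 27.01 to 57.9%), and among the mesoderm-like cells 5 of 48 had one (10.4%, 3.47 to 22.7%). The intervals are exact Clopper-Pearson intervals and cover counting error only. Its mean of 10.8 ± 23.5 CPM in epiblast-like cells was 2.15-fold that of 4.47 ± 17.5 CPM in mesoderm-like cells on the scale with 1 CPM added.

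This mean difference of Crb2 turned with the position of the wells. In plate rows A to D the 19 epiblast-like cells averaged 20.1 ± 32.03 CPM with reads in 11, and the 27 mesoderm-like cells had a single read in 1 cell. The ratio of depth-scaled reads between the classes there was 1338 (counting interval 240 to 52902). This interval takes each read as independent, which reads without molecular identifiers are not. It also does not cover the spread between cells. In rows E to H the 24 epiblast-like cells averaged 3.34 ± 8.70 CPM with reads in 7, below the 21 mesoderm-like cells at 10.2 ± 25.7 CPM with reads in 4, a log2 ratio of -1.37. The ratio of depth-scaled reads was 0.308 in these rows (counting interval 0.260 to 0.362, with the same limits) and 2.13 in all rows. Nearly all Crb2 reads of the mesoderm-like class came from wells F12 with 255 reads, G4 with 220, H3 with 89 and H11 with 62. Whether plate position, or the pieces of tissue sorted into it, had a part in this was not tested. The other 9 genes kept their direction in both sets of rows, although Prkcz had a log2 ratio of 1.40 in rows A to D and 0.03 in rows E to H, as the plot by plate rows shows.

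**Figure D2:**
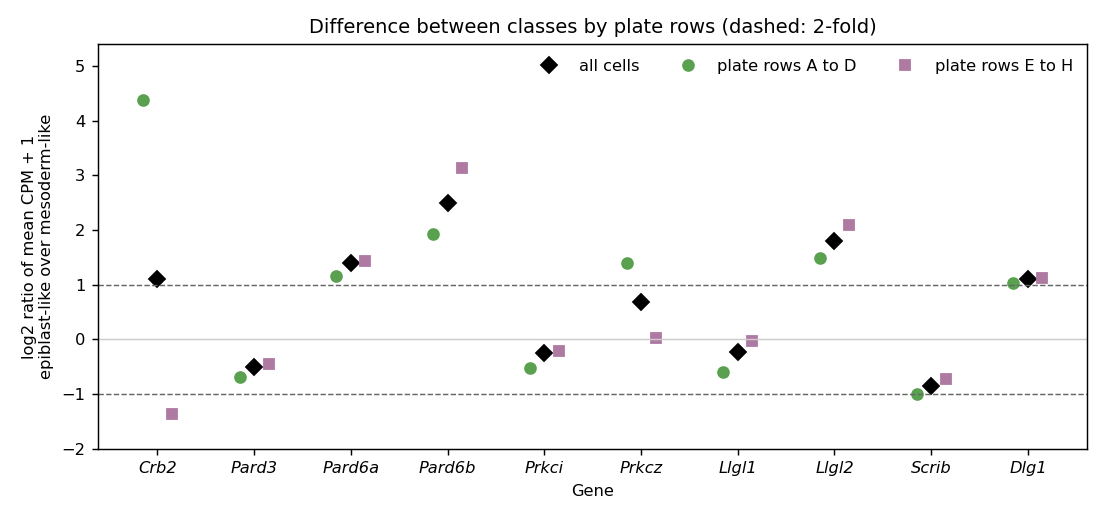
Log2 ratio of mean CPM + 1, epiblast-like over mesoderm-like, for each polarity gene in all 91 cells (black), in plate rows A to D (green) and in plate rows E to H (purple), with 2-fold as dashed lines. Pard6b and Llgl2 lie above 2-fold in both sets of rows, while Crb2 moves from 4.38 to -1.37.

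Pard6b showed the largest difference of the 10 genes. It encodes a Par6 adaptor that links aPKC to the small GTPase Cdc42 and to Crumbs. Values ran from 0 through a median of 0.445 to 320 CPM in epiblast-like cells, and from 0 through a median of 0 to 90.1 CPM in mesoderm-like cells. In both classes a large group of cells had no read, but 12 epiblast-like cells and 3 mesoderm-like cells reached 50 CPM, and 5 epiblast-like cells lay above the highest mesoderm-like cell. Reads were found in 22 of 43 epiblast-like cells (51.2%, 35.5 to 66.7%) and in 9 of 48 mesoderm-like cells (18.8%, 8.95 to 32.6%). The mean was 39.1 ± 69.1 CPM against 6.10 ± 19.5 CPM, a log2 ratio of 2.50 or 5.65-fold. Among the cells with a read the median was 60.7 CPM in the epiblast-like and 22.02 CPM in the mesoderm-like class, so that both the share of cells and the level within them were higher.

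The promoters of Pard6b and Crb2 are shown because these genes had the largest difference and the only difference that changed sign across the plate. Each is the 250 bases before the start site in RefSeq on GRCm38.p6, plus strand, chr2:168080754-168081003 for Pard6b and chr2:37775999-37776248 for Crb2, 5′ to 3′, with CAGGTG, an E-box that Snail and Zeb repressors bind, in capitals.
Pard6b: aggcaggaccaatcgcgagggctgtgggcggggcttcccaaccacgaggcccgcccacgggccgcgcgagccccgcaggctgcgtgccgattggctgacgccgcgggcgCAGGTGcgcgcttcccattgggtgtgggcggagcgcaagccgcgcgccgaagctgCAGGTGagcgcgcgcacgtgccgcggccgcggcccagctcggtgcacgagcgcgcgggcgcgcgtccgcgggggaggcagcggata
Crb2: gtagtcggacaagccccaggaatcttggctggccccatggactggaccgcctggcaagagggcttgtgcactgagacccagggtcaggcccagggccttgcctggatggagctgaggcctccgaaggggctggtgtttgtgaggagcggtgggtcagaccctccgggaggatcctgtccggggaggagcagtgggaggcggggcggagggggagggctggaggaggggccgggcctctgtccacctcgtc
The Pard6b promoter held 2 CAGGTG matches, 141 and 86 bases before the start site, and the Crb2 promoter held none on either strand. Windows were found for 8 of the 10 genes, without Llgl2 and Scrib, and 4 of their 15 windows held CAGGTG or its reverse complement CACCTG, those of Pard6b, Pard3 and Prkcz. Over all promoters 17.2% of 32851 windows of this length held it. A match describes letters in these windows and no binding was measured.

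Pard6a encodes a second Par6 adaptor. Its lowest, median and highest values were 0, 0 and 58.6 CPM in epiblast-like cells and 0, 0 and 47.3 CPM in mesoderm-like cells, so that most cells of both classes were at 0. It had a read in 10 epiblast-like cells (23.3%, 11.8 to 38.6%) and in 4 mesoderm-like cells (8.33%, 2.32 to 19.98%). The means of 6.59 ± 15.2 and 1.87 ± 8.72 CPM differed 2.64-fold, and the intervals of the shares overlapped.

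Pard3, the scaffold that recruits Par6 and aPKC to the junctions, was found in most cells of both classes at similar levels. Values ran from 0 through 30.1 to 209 CPM in epiblast-like and from 0 through 40.97 to 249 CPM in mesoderm-like cells, with wide overlap. A read was present in 38 epiblast-like cells (88.4%, 74.9 to 96.1%) and 42 mesoderm-like cells (87.5%, 74.8 to 95.3%). The means were 46.5 ± 46.5 and 66.5 ± 71.5 CPM, a log2 ratio of -0.51.

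Prkci encodes aPKC iota, a kinase of the PAR complex. Values ran from 0 through 44.04 to 259 CPM in epiblast-like and from 0 through 45.2 to 464 CPM in mesoderm-like cells, with medians nearly equal. The means were 62.6 ± 63.4 and 74.7 ± 95.7 CPM, a log2 ratio of -0.25. Cells without a read were fewer in the epiblast-like class, with 41 of 43 cells positive (95.3%, 84.2 to 99.4%) against 38 of 48 (79.2%, 65.01 to 89.5%), and the intervals overlapped.

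Prkcz encodes aPKC zeta, the other atypical kinase. It ran from 0 through 0.336 to 72.3 CPM in epiblast-like and from 0 through 0 to 82.99 CPM in mesoderm-like cells. The classes overlapped over this whole range, and 22 cells of each had a read (51.2% and 45.8%). The means of 19.9 ± 25.8 and 12.1 ± 20.5 CPM had a log2 ratio of 0.67.

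Of the Scribble module, Llgl2 had the largest difference. It is a mammalian Lgl protein, a basolateral substrate of aPKC known from epithelial tissues. Values ran from 0 through 28.4 to 260 CPM in epiblast-like cells and from 0 through 0 to 147 CPM in mesoderm-like cells. The classes overlapped, and 3 epiblast-like cells lay above the highest mesoderm-like cell. It had a read in 31 epiblast-like cells (72.1%, 56.3 to 84.7%) and 18 mesoderm-like cells (37.5%, 23.95 to 52.6%), intervals that do not overlap. The means were 51.6 ± 59.7 and 14.2 ± 27.4 CPM, a log2 ratio of 1.79 or 3.46-fold.

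Dlg1, the Discs large scaffold, had the highest mean CPM of the 10 genes in epiblast-like cells. It ran from 0 through 66.6 to 312 CPM there and from 0 through 22.2 to 231 CPM in mesoderm-like cells, and 2 epiblast-like cells lay above the highest mesoderm-like cell. A read was present in 40 of 43 epiblast-like cells (93.0%, 80.9 to 98.5%) and 30 of 48 mesoderm-like cells (62.5%, 47.4 to 76.05%), again without overlap of the intervals. The means of 95.3 ± 79.7 and 43.9 ± 56.998 CPM differed 2.14-fold.

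Llgl1, the second Lgl gene, did not share the pattern of Llgl2. Values ran from 0 through 49.5 to 308 CPM in epiblast-like and from 0 through 55.2 to 470 CPM in mesoderm-like cells. The means of 64.4 ± 73.4 and 76.1 ± 91.7 CPM had a log2 ratio of -0.24, and reads were present in 31 and 41 cells. Llgl1 overlaps Flii by 64 exonic bases and Crb2 overlaps Dennd1a by 113, each on the other strand, and the strand setting of the counting is not known here, so that reads of these stretches cannot be assigned.

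Scrib, the scaffold that gives the module its name, was low in both classes. It ran from 0 through 0 to 97.7 CPM in epiblast-like and from 0 through 7.76 to 142 CPM in mesoderm-like cells, with reads in 21 and 28 cells. The means of 13.2 ± 24.2 and 24.7 ± 34.1 CPM had a log2 ratio of -0.86, the lowest of the 10 genes and short of 2-fold.

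The shares of cells with a read had intervals that lay apart for 4 genes, Crb2, Pard6b, Llgl2 and Dlg1, as the plot of shares shows. How often intervals lie apart among all genes measured was not computed, so the 4 are given as a description and not as a test. For Crb2, rows E to H alone had reads in 7 of 24 epiblast-like and 4 of 21 mesoderm-like cells. For comparison, 15 genes of other organs had reads in 12 of 645 gene and cell pairs in epiblast-like cells (1.86%) and in 20 of 720 in mesoderm-like cells (2.78%). Pomc supplied most of these with reads in 26 of the 91 cells, and 12 of the 15 genes had none. With every cell thinned to 500000 counts, Pard6b had a read in 19 and 8 cells, Llgl2 in 30 and 17, Dlg1 in 40 and 30, and Crb2 in 16 and 4, in epiblast-like and mesoderm-like cells respectively.

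**Figure D3:**
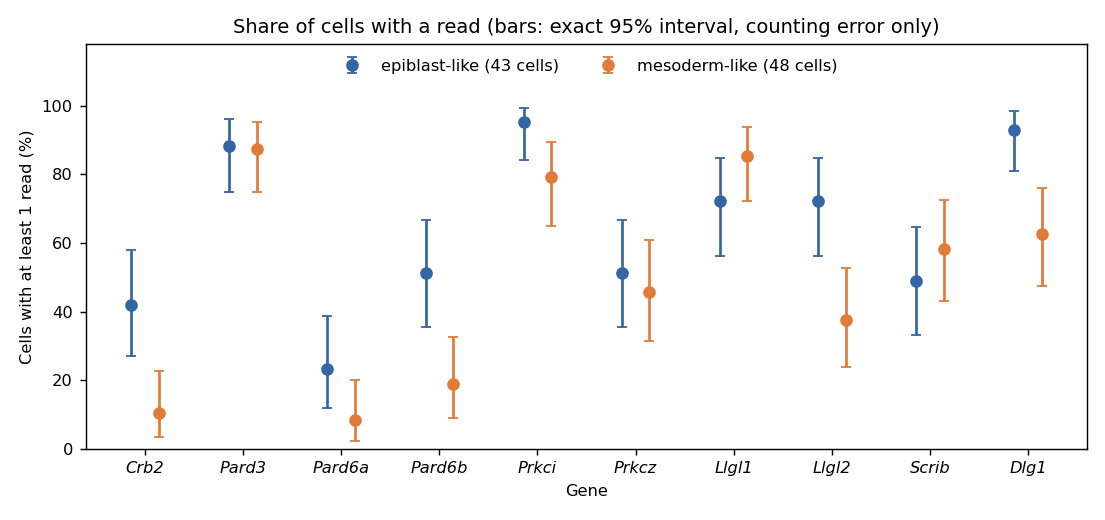
Percent of cells with at least 1 read of each polarity gene in 43 epiblast-like (blue) and 48 mesoderm-like cells (orange), with exact 95% intervals for counting error as bars. The intervals of Crb2, Pard6b, Llgl2 and Dlg1 do not overlap between the classes, and those of the other 6 genes do. They describe cells of 1 pool and are no test, and the shares of Crb2 differed between plate rows.

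Levels were compared between genes per exon length, as RPKM, the CPM of a gene over its exon length in kilobases. In epiblast-like cells the order of mean RPKM was Llgl1 at 13.2, Pard6b at 11.5, Prkci at 11.3, Llgl2 at 10.6, Dlg1 at 8.87, Pard6a at 4.17, Pard3 at 3.20, Prkcz at 3.15, Scrib at 2.04 and Crb2 at 1.61. In mesoderm-like cells Llgl1 at 15.7 and Prkci at 13.5 stayed at the top, followed by Pard3 at 4.59, Dlg1 at 4.09, Scrib at 3.83, Llgl2 at 2.93, Prkcz at 1.91, Pard6b at 1.79, Pard6a at 1.18 and Crb2 at 0.667. Neighbours in either order differed by less than the SD of both over cells, except Prkci and Pard3 in mesoderm-like cells, whose difference exceeded the SD of Pard3 of 4.93 RPKM. Pard6b and Llgl2 moved from among the 4 highest to the lower places, while Crb2 was lowest in both classes.

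The share of RNA that each paralogue gave differed between the classes. The shares are of class means and carry no spread, and no protein or complex was measured. Pard6b in epiblast-like cells, for one, had a mean of 11.5 with an SD of 20.3 RPKM. Pard6g, the third Par6 gene and not one of the 10, had means of 25.3 ± 51.6 and 39.4 ± 52.9 CPM in the epiblast-like and the mesoderm-like class, a log2 ratio of -0.62. Of the summed mean RPKM of the 3 Par6 genes, Pard6b made 48.5% in epiblast-like and 11.6% in mesoderm-like cells, and Pard6g 33.9% and 80.8%. A read of any Par6 gene was present in 38 epiblast-like and 34 mesoderm-like cells. Prkcz gave 21.8% of the aPKC RPKM in epiblast-like and 12.4% in mesoderm-like cells, so that Prkci was the main gene in both. Llgl2 gave 44.6% of the Lgl RPKM in epiblast-like and 15.8% in mesoderm-like cells. Llgl2 without Llgl1 was found in 10 epiblast-like cells and in 0 of 48 mesoderm-like cells, for which a floor of 3 counts allows a share of up to 6.25%.

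**Figure D4:**
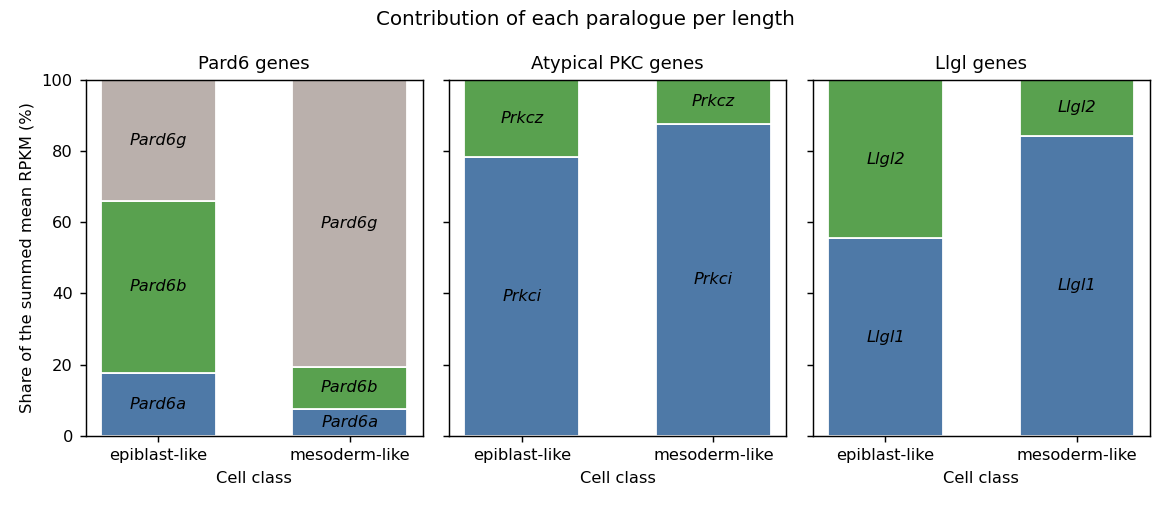
Share of the summed mean RPKM that each Par6, aPKC and Lgl gene gave in epiblast-like and mesoderm-like cells, in percent. Pard6b gives 48.5% and 11.6% and Llgl2 44.6% and 15.8% in the classes, while Prkci is the larger aPKC gene in both.

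Cells were next described by the set of polarity genes they held. Epiblast-like cells had reads of 3 to 9 of the 10 genes with a median of 7, and mesoderm-like cells of 2 to 9 with a median of 5. The median was 3 and 1 for Crb2, Pard6a, Pard6b, Llgl2 and Dlg1 and 4 in both classes for the other 5, a split that follows from the 2-fold rule on the same cells and is given as a description. With every cell thinned to 500000 counts the medians over the 10 genes were 6 and 4.5. Spearman's rho between polarity genes and all genes with a read in a cell was 0.22 in the 43 epiblast-like and 0.39 in the 48 mesoderm-like cells, and the mesoderm-like cell with 9 polarity genes, well H3, also had the most genes with a read (10448).

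A read of Pard3, of Pard6a or Pard6b, and of Prkci or Prkcz, which together make a PAR complex, was present in 24 of 43 epiblast-like cells (55.8%, 39.9 to 70.9%) and 8 of 48 mesoderm-like cells (16.7%, 7.48 to 30.2%). Counting Pard6g as well raised this to 34 (79.1%, 63.96 to 89.96%) and 26 cells (54.2%, 39.2 to 68.6%), and the intervals then overlapped. Reads of Scrib, Dlg1 and an Lgl gene together were present in 18 epiblast-like (41.9%, 27.01 to 57.9%) and 15 mesoderm-like cells (31.2%, 18.7 to 46.3%). Pairs of the genes that differed were also counted. Pard6b and Llgl2 occurred together in 16 epiblast-like cells (37.2%, 22.98 to 53.3%) and 2 mesoderm-like cells (4.17%, 0.509 to 14.3%). Crb2 and Pard6b occurred together in 8 epiblast-like cells and in 0 of 48 mesoderm-like cells, for which the same floor of 3 counts allows up to 6.25%. None of Crb2, Pard6a, Pard6b and Llgl2 had a read in 2 epiblast-like (4.65%, 0.568 to 15.8%) and 20 mesoderm-like cells (41.7%, 27.6 to 56.8%). These sets were chosen after the levels were known, and they include genes with the difference already described.

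Correlations between the genes across cells were mostly weak. Over all 91 cells Spearman's rho of the 45 pairs ran from -0.28 to 0.22. In the 43 epiblast-like cells it ran from -0.54 to 0.24, and in the 48 mesoderm-like cells from -0.27 to 0.41, where the highest was for Crb2 and Pard6a, which had reads together in 2 cells. The lowest value was that of Pard6b and Prkcz in epiblast-like cells, of which 7 had reads of both, 15 of Pard6b alone, 15 of Prkcz alone and 6 of neither. It was -0.48 in thinned cells and -0.11 in mesoderm-like cells. The cells share 1 pool and differ in depth, so that these values describe the cells at hand.

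For the 6 polarity genes with a read in at least 50% of the cells, the genes most alike were named by Spearman's rho over the 91 cells among 10785 genes. Llgl2 was most like Pcdh1, a protocadherin gene, at 0.53, followed by the glucose transporter gene Slc2a1 at 0.46 and Bex4 at 0.45, with log2 ratios between the classes of 3.78, 2.50 and 1.20. Dlg1 was most like Id3 at 0.49, Sox3 at 0.45 and Hes3 at 0.42, genes of transcription regulators that were themselves higher in epiblast-like cells, with log2 ratios of 4.83, 3.58 and 5.78. Pard3 was most like Eif2ak3 at 0.45, the proliferation gene Mki67 at 0.41 and Pknox2 at 0.41. Prkci was most like Rwdd4a at 0.39, Ddost at 0.37 and Dock1 at 0.33. Scrib was most like Poldip2 and Zfp217 at 0.37, and Llgl1 like the pseudogene Slc25a5-ps at 0.43 and Gm11353 at 0.39. The values named are the highest among 10785 genes, and how high unrelated genes would reach was not computed. The 91 cells hold both classes, and rho of these pairs within a class was not computed. Whether the class difference alone gives the values of Llgl2 and Dlg1 was therefore not tested.

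Cells with reads of both T, the mesodermal Brachyury gene, and Sox2, a neural and pluripotency gene, are those the study relates to neuromesodermal progenitors. Among the epiblast-like cells 25 had both and 18 did not. None of the 10 polarity genes differed at least 2-fold between these cells, beside 9.04% of 15623 genes that were at least 2-fold higher and 7.33% lower in the double-positive cells. Prkcz had the largest difference, with means of 25.003 ± 26.3 CPM and a read in 15 of 25 double-positive cells against 12.8 ± 24.05 CPM and a read in 7 of 18 other cells, a log2 ratio of 0.92. Pard6b averaged 32.6 ± 52.6 CPM in double-positive and 48.2 ± 87.97 CPM in the other cells, with reads in 11 cells of each. Dlg1 averaged 81.7 ± 72.6 and 114 ± 87.2 CPM. For these 3 genes the SDs were larger than the differences. When at least 5 reads of both T and Sox2 were asked for, 16 cells were double-positive, and Crb2 and Pard6a were then at least 2-fold higher in them, with log2 ratios of 1.56 and 1.28, and Pard3 and Pard6b lower, with -1.07 and -1.45. With that split 6.78% of the 15623 genes were at least 2-fold higher and 9.33% lower.

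Genes of proteins that work with the 10 were taken from lists that were chosen with earlier results of these data known. Of 60 measured partner genes in 6 lists, 10 met the 2-fold rule toward the epiblast-like class, 7 toward the mesoderm-like class and 43 toward neither, beside 8.18% and 9.55% of all genes measured. The count toward the mesoderm-like class was close to that share. Of 7 Crumbs partners, Crb3, a second Crumbs gene, was higher in epiblast-like cells with a read in 3 cells against 0 of 48, and Lin7a, a Crumbs-associated scaffold, in mesoderm-like cells with a read in 11 cells against 0 of 43, a floor of 3 counts allowing up to 6.98%. Both passed the filter of 3 cells with a read through the higher class alone, and so had to differ. The central scaffold Mpp5, also called Pals1, averaged 70.3 ± 94.4 and 117 ± 176 CPM, a log2 ratio of -0.73. Of 15 PAR partners, the mesoderm-like class had more of Pard3b and Mark4 and the other 13 stayed under 2-fold, among them Cdc42, which averaged 532 ± 197 and 537 ± 248 CPM. Pard3b averaged 0.042 and 4.53 CPM, with a read in 1 epiblast-like and 5 mesoderm-like cells. It too passed the filter of 3 cells through the higher class. Of 7 Scribble partners, only Erbin passed 2-fold, at 3.51 ± 10.9 CPM in the epiblast-like and 22.6 ± 48.5 CPM in the mesoderm-like class.

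Apical surface genes were divided. Of 13, Ezr, which links the apical membrane to actin, had means of 134 ± 108 and 54.8 ± 67.5 CPM in the epiblast-like and the mesoderm-like class, a log2 ratio of 1.27. Podxl, an apical sialomucin, had reads in 24 epiblast-like and 3 mesoderm-like cells, and Rab25, an epithelial recycling GTPase, in 17 and 1. Rab25 passed the filter of 3 cells with a read through the higher class, as Crb3 did. Both are in the count of partner genes toward the epiblast-like class. Amot, an angiomotin that binds Patj and junctional proteins, lay the other way, at 24.2 ± 54.1 and 178 ± 183 CPM with reads in 13 and 45 cells, so that it was present in nearly all mesoderm-like cells and in the minority of epiblast-like cells. The other 9 differed less than 2-fold.

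Of 10 junction genes, the epiblast-like class had more of Cdh1 and Nectin2 and the other 8 stayed under 2-fold. Nectin2, a junctional adhesion receptor, averaged 182 ± 102 CPM with reads in all 43 epiblast-like cells and 34.1 ± 43.7 CPM with reads in 28 mesoderm-like cells. Among 8 basal side genes, Itga3, Itga6, Lama5 and Lamc1 were higher in epiblast-like cells and Lama1 and Lamb1 in mesoderm-like cells. The laminin receptor subunit gene Itga6 averaged 48.2 ± 55.7 and 3.005 ± 11.5 CPM, a log2 ratio of 3.62. The laminin alpha chains lay in opposite directions, with Lama5 at 60.4 ± 60.7 and 20.2 ± 35.3 CPM and Lama1 at 4.67 ± 15.5 and 63.8 ± 85.01 CPM. The median log2 ratios were -0.53 for Crumbs, -0.08 for PAR and -0.41 for Scribble partners, -0.10 for apical, -0.24 for junction and 0.87 for basal genes.

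**Figure D5:**
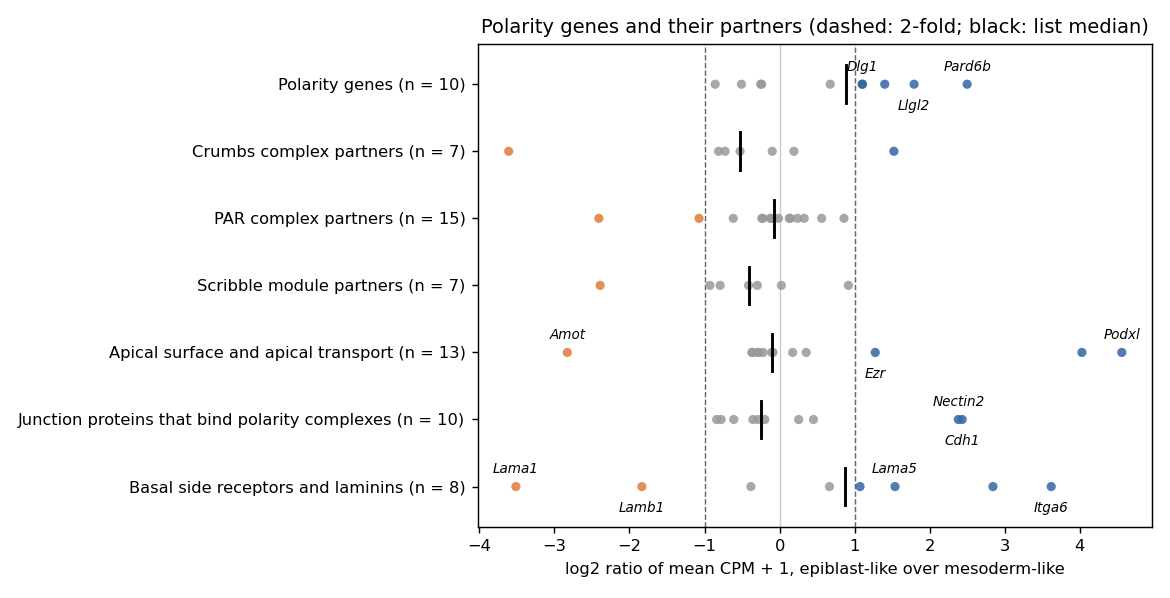
Log2 ratio of mean CPM + 1, epiblast-like over mesoderm-like, for each measured gene of the polarity set and of 6 partner lists, with the list median as a black line and 2-fold as dashed lines. The polarity genes and the basal side genes have medians of 0.89 and 0.87, and the other lists have medians below 0.

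The genomic positions on GRCm38 were chr2:37776249-37799103 for Crb2, chr8:127063893-127612286 for Pard3, chr8:105701148-105703496 for Pard6a, chr2:168081004-168101203 for Pard6b and chr3:30995747-31052959 for Prkci. Those of the others were chr4:155260129-155361361 for Prkcz, chr11:60699723-60714186 for Llgl1, chr11:115824049-115855780 for Llgl2, chr15:76047158-76069784 for Scrib and chr16:31663443-31875129 for Dlg1. All 10 are protein-coding genes.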

How the data were processed

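Single cells of the mouse CLE were profiled by Smart-seq2 in wells of 1 plate. The deposited values are the authors' read counts for each gene in 91 cells, without normalization, from reads aligned with HISAT2 to GRCm38 (mm10) and assigned by featureCounts. Versions, annotation release and strand setting were not given in the sources used here. All columns were mapped to cells, and no pair of cells held the same counts. Symbols were matched for 53274 of 53379 identifiers. No row without a gene was present, no cell was left out, and no doublet caller was run.

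From the counts, CPM, the 2-fold rule with a pseudocount of 1 CPM, exact 95% intervals and Spearman's rho were computed with scipy 1.17.1, pandas 2.3.3 and numpy 2.4.6 under Python 3.11.15, and figures with matplotlib 3.10.9. Measured genes had reads in 3 or more cells. RPKM used exon lengths of a GENCODE annotation of GRCm38. Intervals of shares take cells as independent and cover counting error only, and SDs describe cells and not embryos. Intervals of read ratios take reads as independent, which reads without molecular identifiers are not. A share of 0 was given the limit of 3 counts. The steps were tested on simulated counts, in which the changed genes had at least 10 CPM. Of 50 genes with a true 2-fold difference 20.0% met the 2-fold rule, and of 50 with a 4-fold difference 98.0%. Of 17854 unchanged genes 7.95% passed 2-fold in either direction. CPM removes differences in depth but not in RNA content per cell.

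The genes, lists and classes were chosen with earlier results of these data known. Named genes are the 10, the genes of the class rule and markers, T and Sox2, of each partner list up to 4 with the largest log2 ratio among genes past 2-fold that had reads in 50% or more of the higher class, and, for each of the 10 with reads in 50% or more of all cells, the 3 most alike genes with reads in 25% or more, of which some are not reported here. Crb3, Lin7a, Mpp5, Pard3b, Mark4, Cdc42, Erbin, Rab25, Pard6g, Itga3 and Lamc1, the sets of genes counted together, and the pair Pard6b and Prkcz were named after their values were seen. Alternatives changed normalization, pseudocount, averaging, depth, class rule, plate rows, filters and read minimum.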

Additional observations from a re-analysis of the deposited data

How the results depend on the processing

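Over 12 alternatives of normalization, pseudocount, averaging, depth, class rule, single cells and plate rows, Pard6b (log2 ratio 1.58 to 3.13) and Llgl2 (1.35 to 2.29) kept a difference of at least 2-fold toward the epiblast-like class in all 12, Dlg1 (0.97 to 2.34) in 11, Pard6a (0.48 to 1.74) in 10 and Crb2 (-1.37 to 4.38) in 8. With a pseudocount of 10 CPM only 2 genes passed, since Crb2 (0.52), Pard6a (0.48) and Dlg1 (0.97) came under 2-fold. The share of all genes that meet the rule was not computed for these 12 alternatives. Crb2 was also under 2-fold with summed counts (0.96) and with Tbx6 in place of Aldh1a2 (0.88), and Pard6a as a difference of mean log2 values (0.73). In plate rows E to H 1 gene, Crb2 at -1.37, was higher in mesoderm-like cells, and in rows A to D Prkcz passed 2-fold at 1.40. The cause was not tested. Pard3, Llgl1 and Scrib were below 0 in all 12, and Prkci ran from -0.52 to 0.27.

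With a mean of at least 10 CPM asked for, 7 partner genes were higher in epiblast-like and 4 in mesoderm-like cells. Of all genes with that mean, 5.59% and 7.81% were. The filter also leaves fewer partner genes. With at least 5 reads of T and Sox2, 2 polarity genes were higher and 2 lower in double-positive cells, beside 6.78% and 9.33% of all genes. The highest rho in mesoderm-like cells was 0.29 in thinned cells. The Tbx6 rule moved 4 cells to the other class, and the sign of the first principal component moved 3. Leaving out well D4 was added after the data were seen. No paired analysis was possible because the cells form 1 pool and the wells carry no shared replicate numbers. Depth limits what a cell without a read can show, since a gene at 0 may be present below detection, and low genes such as Crb2 and Pard6a rest on few cells.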
